A study of Homo sapiens with 27 samples.

Results

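The genes described here are SOCS1 to SOCS7, CISH and PIAS3, 9 genes that encode inhibitors of cytokine signalling, taken by gene symbol from a table of 36536 symbols or identifiers measured by RNA-seq. The rule used gene names only, although the set was proposed with earlier results of these data known. All 9 passed the filter on low counts, among 15575 genes tested. The cells were MCF10A, an established, non-tumorigenic line of human mammary epithelial cells. Their growth medium held epidermal growth factor (EGF) at 20 ng/ml, and an 18 h period in growth-factor-free medium came before treatment in fresh growth-factor-free medium. The T0 group was the untreated control at 0 h, and the PBS group received phosphate-buffered saline. The other 7 groups received ligands at 10 ng/ml each: EGF, the interleukin-6 family cytokine oncostatin M (OSM), or transforming growth factor beta (TGFB). These were given singly (EGF, OSM, TGFB), in pairs (EGF+OSM, EGF+TGFB, OSM+TGFB) or all together (EGF+OSM+TGFB). PBS and ligand groups were sampled at 24 h, and with 3 libraries for every one of the 9 groups the series has 27. All groups shared the earlier growth in EGF and the growth-factor-free period, and the labels name no separate clones or passages of the line.

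SOCS proteins carry an SH2 domain, which binds phosphorylated tyrosines on receptors or kinases, and a SOCS box, which joins elongin B, elongin C and cullin 5 in a ubiquitin ligase. Several are transcribed in response to the STAT factors that their targets activate, and so form negative feedback loops. OSM acts through receptors that contain gp130 (encoded by IL6ST) and JAK kinases, with STAT3 as a main effector. SOCS3 binds gp130 and inhibits the JAKs attached to it, and SOCS1 also inhibits JAKs directly, best known after interferons. CISH and SOCS2 are classical targets of STAT5 and restrain receptors of the growth hormone, prolactin and erythropoietin type. SOCS4 and SOCS5 have been tied to the EGF receptor, and SOCS6 and SOCS7 to receptor tyrosine kinases and insulin receptor substrates. PIAS3 has no SOCS box; it is a SUMO ligase that binds STAT3.

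The sequences before CISH and SOCS1 are shown because these genes responded to OSM in opposite directions relative to PBS, CISH upward and SOCS1 downward. They did so with EGF as well (log2 fold changes of 1.22 and -3.01). Each is the 250 bases before a start site, 5′ to 3′ on the strand of the gene. Capitals mark matches to the STAT motif TTCNNNGAA, which reads the same on both strands. The CISH window, chr3:50611775-50612024 on the minus strand of GRCh38.p14, and the SOCS1 window, chr16:11256205-11256454 on the minus strand of the same build, come from RefSeq.
CISH: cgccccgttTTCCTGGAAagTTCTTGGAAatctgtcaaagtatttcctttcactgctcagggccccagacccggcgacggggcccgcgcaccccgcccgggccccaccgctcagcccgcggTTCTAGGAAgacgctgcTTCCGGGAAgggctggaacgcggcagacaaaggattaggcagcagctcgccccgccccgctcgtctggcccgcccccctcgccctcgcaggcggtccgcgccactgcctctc
SOCS1: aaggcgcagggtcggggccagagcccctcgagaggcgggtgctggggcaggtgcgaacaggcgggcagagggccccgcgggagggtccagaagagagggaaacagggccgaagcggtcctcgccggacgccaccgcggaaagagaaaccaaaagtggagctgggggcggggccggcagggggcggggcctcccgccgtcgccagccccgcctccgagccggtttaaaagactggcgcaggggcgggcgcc

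The CISH window held 4 STAT matches, whose first bases lie 241, 230, 129 and 112 bases before the start. The SOCS1 window held 0. Of 35116 RefSeq windows of 250 bases, 6.57% held at least 1 STAT match. The AP-1 motif TGANTCA, searched on both strands, was in 0 windows of the 5 genes described here and in 6.57% of all windows, so no match overlapped another motif. The windows of SOCS4, SOCS6 and PIAS3 held 0 matches to either motif, and SOCS2, SOCS5 and SOCS7 were not in the RefSeq table. The PIAS3 window, chr1:145859082-145859331, lies before a RefSeq start but inside the span of the gene in GENCODE v44. Of these 5 genes, CISH alone rose with OSM, so the windows do not allow a comparison of matches with the direction of the response. A match describes the letters of the window and does not show binding.

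The libraries held 30.1 to 52.9 M (mega) counts each (median 39.5 M), and levels are given as CPM, the counts of a gene per M counts of its library after TMM scaling. At these totals the spread between replicates exceeded counting error, and the biological coefficient of variation was 7.83%. All 11 epithelial markers on the list were detected, with summed levels from 14134 to 41000 CPM over the libraries, higher in every OSM library (29288 to 29817 CPM) than in every PBS library (15027 to 17265 CPM). With OSM, 6 of the 11 rose and 3 fell, beside 33.5% and 29.8% of all genes tested. The largest changes were in the keratins KRT14 (log2 fold change 2.04) and KRT17 (1.31) and in the integrin ITGB4 (1.38), and the 3 that fell were the cadherin CDH1 (-0.88), KRT8 (-0.72) and EPCAM (-0.60). Of 8 fibroblast markers, 1 had no library above 3 counts, and the list summed to 129 to 134 CPM in PBS, 87.9 to 110 CPM in OSM, 30.9 to 36.0 CPM in EGF and 204 to 214 CPM in TGFB. Of its 5 tested genes, 1 rose and 2 fell with OSM, beside 33.5% and 29.8% of all genes tested. LUM rose from at most 2 counts in any PBS library to 0.0854 to 0.311 CPM in OSM, close to the floor in both groups. COL1A1 fell by 0.58 and DCN by 0.33 on the log2 scale. Of 10 immune and endothelial markers, 1 had no library above 3 counts, and that list summed to 85.7 to 96.2 CPM in PBS, 99.1 to 123 CPM in OSM and 27.7 to 77.8 CPM in the other groups. Of its 5 tested genes, 3 rose and 2 fell with OSM, beside the same 33.5% and 29.8% of all genes. The monocyte marker CD14 rose by 1.03, KDR fell by 4.31, and VWF fell from 1.68 to 3.52 CPM in PBS to at most 3 counts in any OSM library. The leukocyte marker PTPRC had at most 4 counts in any PBS library. The part of these markers in the results below was not tested. In such bulk samples, fewer expressing cells and less RNA per cell cannot be told apart.

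**Figure D1:**
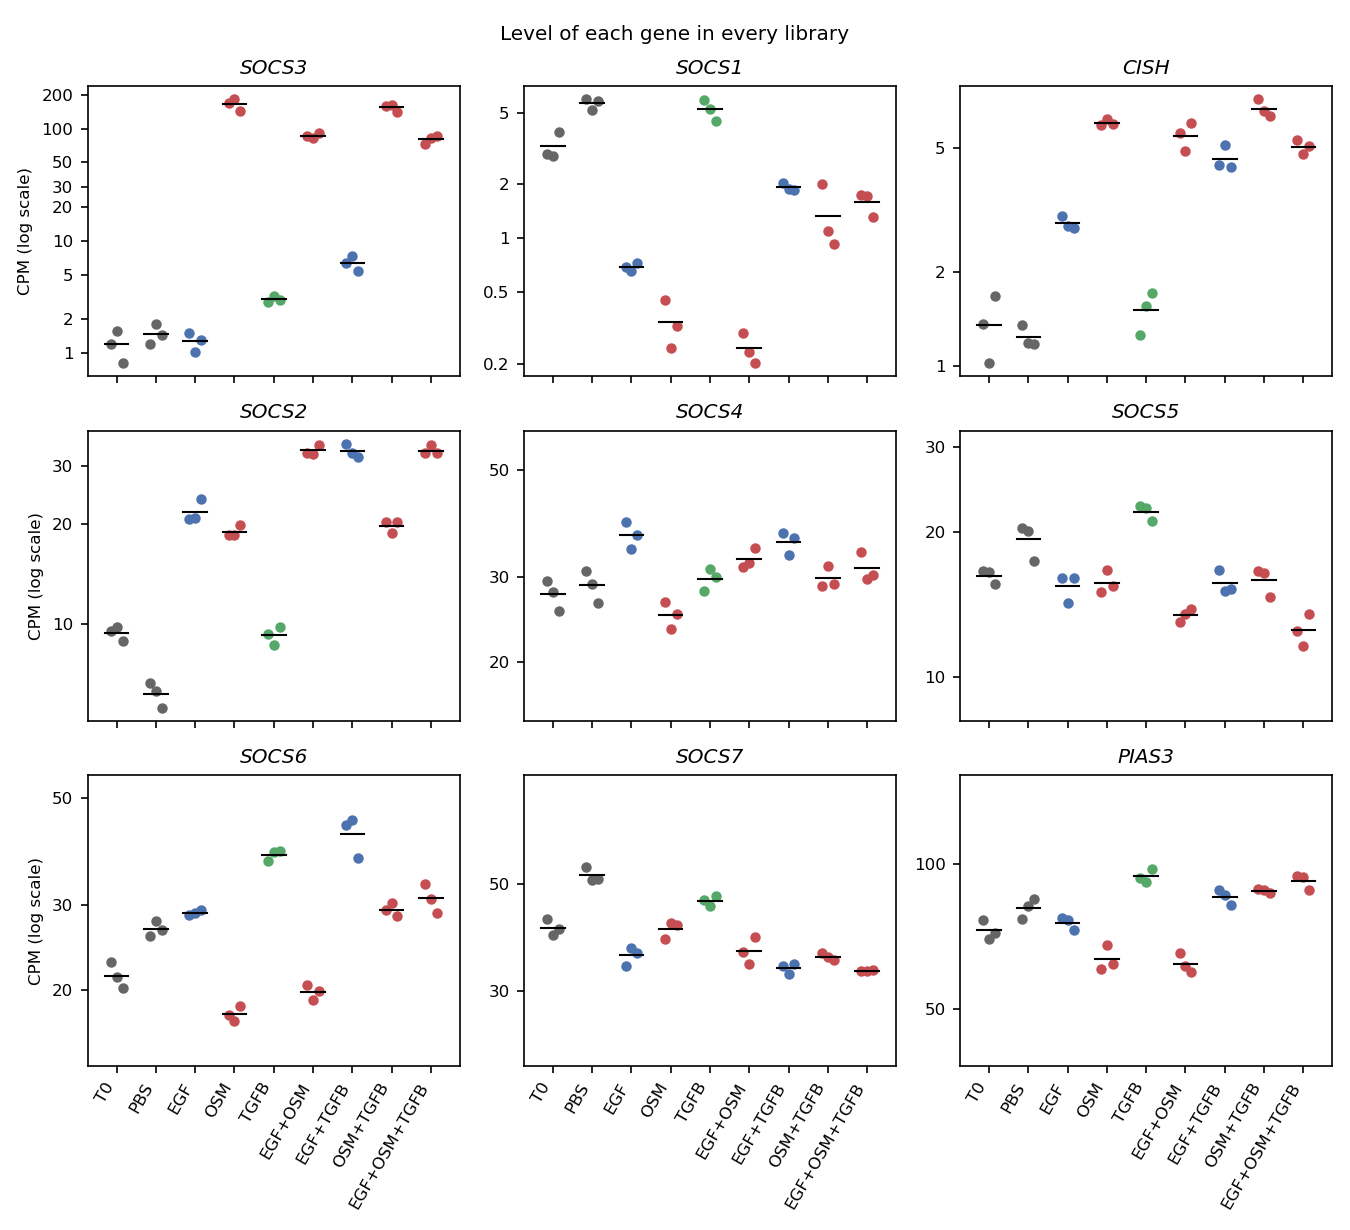
Level of each of the 9 genes in every library, in CPM on a log axis, with 1 point per library and a bar at the group mean (grey, T0 and PBS; blue, groups with EGF but not OSM; green, TGFB; red, every group with OSM). SOCS3 lies between 73.2 and 183 CPM in the libraries with OSM and at or below 7.31 CPM in the libraries without it, while SOCS4, SOCS5, SOCS7 and PIAS3 vary by less than 1.8-fold between the highest and lowest group mean.

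SOCS3, the gp130-directed JAK inhibitor, marked the libraries with OSM. The gene (ENSG00000184557) lies at chr17:78356778-78360077 on the minus strand of GRCh38 in GENCODE v44 and has 2 exons. Its level in the 3 OSM libraries was 169, 183 and 143 CPM, against 1.20, 1.83 and 1.44 CPM in the 3 PBS libraries. The EGF+OSM libraries held 85.9, 82.1 and 90.4 CPM, the OSM+TGFB libraries 160, 162 and 140 CPM, and the EGF+OSM+TGFB libraries 73.2, 82.7 and 85.0 CPM. Every library with OSM was above every library without it, and the 12 libraries fell into a higher pair of groups without EGF and a lower pair with EGF that did not overlap. Among libraries without OSM, T0 held 1.21, 1.59 and 0.816 CPM and EGF held 1.51, 1.02 and 1.32 CPM. TGFB held 2.87, 3.22 and 3.0 CPM, and EGF+TGFB held 6.38, 7.31 and 5.35 CPM. The T0, PBS and EGF libraries overlapped, TGFB lay above them, and EGF+TGFB lay above TGFB.

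Relative to PBS, SOCS3 was 109-fold higher with OSM, a log2 fold change of 6.77 ± 0.15 (SE). It was 57.1-fold higher with EGF+OSM, 102-fold higher with OSM+TGFB and 53.2-fold higher with all ligands. TGFB alone gave 2.01-fold (log2 1.01 ± 0.20) and EGF+TGFB gave 4.27-fold. All 6 of these differences had an adjusted p under 0.05 in the quasi-likelihood test of edgeR, adjusted over all genes tested by the Benjamini-Hochberg method, which is what "called" means throughout. EGF alone gave a log2 fold change of -0.24, with a 95% interval from -0.72 to 0.24, and an adjusted p of 0.35 in edgeR, and PBS against T0 gave 0.29 (0.35).

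The ligands changed SOCS3 by different amounts according to what else was present. EGF added to OSM lowered it by 0.94 on the log2 scale (1.92-fold), and EGF added to OSM+TGFB lowered it by 0.94 as well. EGF added to TGFB raised it by 1.08. The effect of EGF thus pointed down beside OSM and up beside TGFB, but no contrast compared these effects with each other. The departures of pairs from additivity, given further on, compare the effect of EGF beside OSM, or beside TGFB, with that of EGF alone. TGFB added to EGF raised SOCS3 by 2.33, whereas TGFB added to OSM gave -0.10 (95% interval -0.31 to 0.11) and TGFB added to EGF+OSM gave -0.10 (-0.32 to 0.11), both not called. OSM raised it in every setting, by 6.08 beside EGF, 5.67 beside TGFB and 3.64 beside EGF+TGFB.

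SOCS1 ran the other way. The gene (ENSG00000185338, chr16:11254417-11256204, minus strand) encodes the closest JAK-inhibiting relative of SOCS3. It was highest in PBS, at 5.93, 5.13 and 5.79 CPM, and in TGFB, at 5.90, 5.21 and 4.50 CPM. It was 2.96, 2.85 and 3.92 CPM at T0, and 0.690, 0.659 and 0.732 CPM with EGF. The OSM libraries held 0.455, 0.244 and 0.324 CPM and the EGF+OSM libraries 0.298, 0.233 and 0.202 CPM. PBS and TGFB overlapped each other and lay above all other groups, and the OSM and EGF+OSM libraries overlapped each other and lay below all other groups. These lowest libraries held only 8 to 16 counts of SOCS1 each, which limits the precision of their fold changes.

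Relative to PBS, SOCS1 was 16.6-fold lower with OSM (log2 -4.05 ± 0.25), 8.08-fold lower with EGF (-3.01 ± 0.22) and 22.8-fold lower with EGF+OSM (-4.51 ± 0.26). TGFB alone gave -0.11 (95% interval -0.51 to 0.29; adjusted p = 0.70 in edgeR), yet TGFB raised SOCS1 wherever EGF or OSM was present. It did so by 1.47 beside EGF, 1.99 beside OSM and 2.69 beside EGF+OSM. The libraries with TGFB and another ligand were intermediate, at 2.03, 1.88 and 1.85 CPM for EGF+TGFB, 1.99, 1.09 and 0.929 CPM for OSM+TGFB, and 1.74, 1.71 and 1.32 CPM for EGF+OSM+TGFB. OSM+TGFB replicate 1 stood above its fellows. EGF added to OSM+TGFB gave 0.24 and was not called (adjusted p = 0.38), but without that replicate it gave 0.65 and was called (adjusted p = 0.016). SOCS1 also rose 1.73-fold from T0 to PBS.

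CISH and SOCS2, the STAT5-associated members, rose with both OSM and EGF. CISH (ENSG00000114737, chr3:50606489-50611774, minus strand) held 1.35, 1.19 and 1.17 CPM in PBS, 3.03, 2.81 and 2.78 CPM in EGF, and 5.95, 6.19 and 5.97 CPM in OSM. TGFB held 1.25, 1.56 and 1.72 CPM, within the range of T0 and PBS or just above it. The groups with OSM and EGF+TGFB all lay above EGF alone: EGF+OSM held 5.58, 4.89 and 6.02 CPM, EGF+TGFB 4.43, 5.10 and 4.35 CPM, OSM+TGFB 7.19, 6.58 and 6.36 CPM, and EGF+OSM+TGFB 5.31, 4.81 and 5.08 CPM. Against PBS the log2 fold changes were 1.22 ± 0.15 with EGF, 2.29 ± 0.15 with OSM and 0.29 ± 0.16 with TGFB, the last not called (adjusted p = 0.17 in edgeR). TGFB added to EGF raised CISH by 0.69, and EGF added to OSM gave -0.14 (95% interval -0.41 to 0.14), not called. EGF added to OSM+TGFB lowered it by 0.40 (adjusted p = 0.012 in edgeR), a call lost without OSM+TGFB replicate 1 (0.056).

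SOCS2 (ENSG00000120833, chr12:93569814-93583487, plus strand) fell into 3 bands, with PBS, T0 and TGFB below EGF, OSM and OSM+TGFB, and these below the other groups. PBS was lowest, at 6.60, 6.28 and 5.57 CPM, with T0 at 9.54, 9.78 and 8.84 CPM and TGFB at 9.29, 8.64 and 9.77 CPM. EGF held 20.7, 20.8 and 23.8 CPM, OSM 18.5, 18.5 and 19.8 CPM, and OSM+TGFB 20.3, 18.8 and 20.3 CPM. EGF+OSM held 32.8, 32.5 and 34.7 CPM, EGF+TGFB 34.9, 32.9 and 31.8 CPM, and EGF+OSM+TGFB 32.7, 34.5 and 32.7 CPM. The means of the last 3 groups were 33.3 ± 1.17, 33.2 ± 1.59 and 33.3 ± 1.05 CPM (SD, n = 3), and their libraries overlapped. Relative to PBS, SOCS2 was 3.53-fold higher with EGF, 3.08-fold higher with OSM, 1.5-fold higher with TGFB and 5.41-fold higher with EGF+OSM. OSM added to EGF+TGFB gave a log2 fold change of 0.01 (95% interval -0.13 to 0.14), and TGFB added to EGF+OSM gave 0.00 (-0.14 to 0.14). SOCS2 fell by 0.61 on the log2 scale from T0 to PBS.

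**Figure D2:**
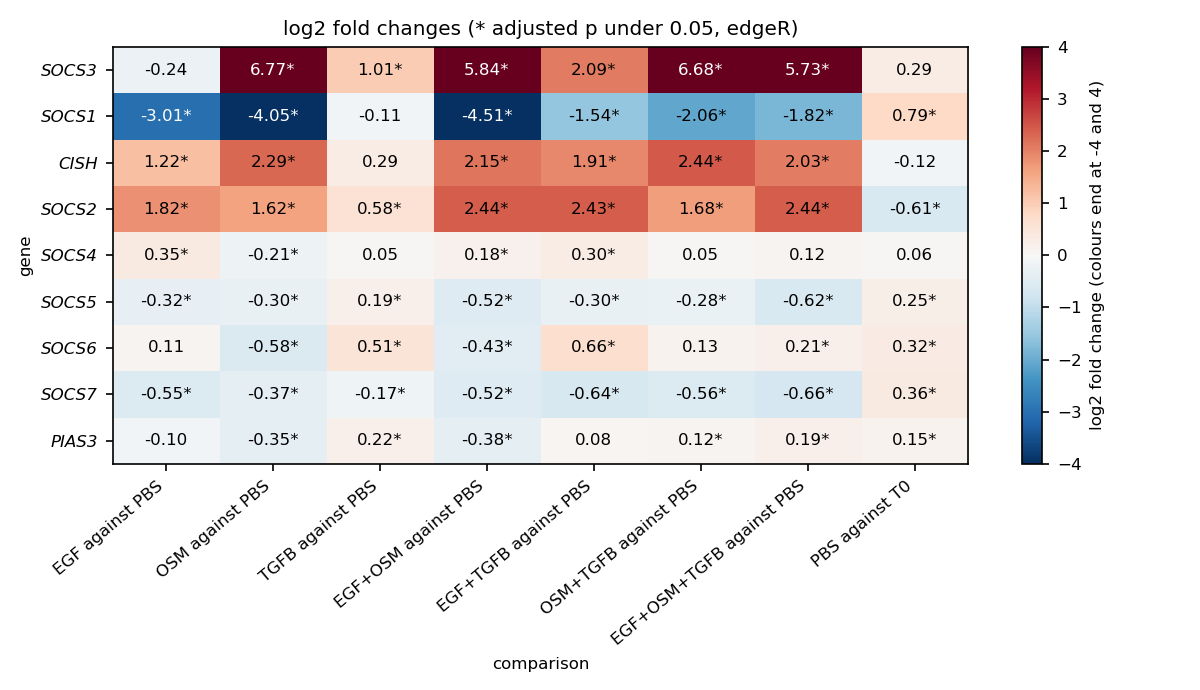
Log2 fold changes of the 9 genes (rows) in each of 7 treatments against PBS and in PBS against T0 (columns), with an asterisk where the adjusted p from edgeR was under 0.05. SOCS3 ranges from -0.24 to 6.77 and SOCS1 from -4.51 to 0.79, while no value of SOCS4, SOCS5, SOCS6, SOCS7 or PIAS3 exceeds 0.66 in either direction.

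SOCS6 was the only one of SOCS4 to SOCS7 whose group means spanned more than 2-fold (2.36-fold), and TGFB and OSM moved it in opposite directions. The gene (ENSG00000170677, chr18:70289045-70330199, plus strand) held 25.9, 27.8 and 26.7 CPM in PBS, 37.1, 38.6 and 38.8 CPM in TGFB, and 17.8, 17.3 and 18.5 CPM in OSM. The 3 groups did not overlap. EGF+TGFB was the highest group at 44, 45.0 and 37.6 CPM, EGF+OSM held 20.5, 19.1 and 19.9 CPM, and OSM+TGFB held 29.4, 30.3 and 28.6 CPM. Against PBS the log2 fold changes were 0.51 ± 0.06 with TGFB, -0.58 ± 0.06 with OSM and 0.11 ± 0.06 with EGF, the last not called (adjusted p = 0.11 in edgeR). TGFB raised SOCS6 by 0.55 beside EGF, 0.72 beside OSM and 0.65 beside EGF+OSM, and OSM lowered it by 0.55 beside EGF, 0.38 beside TGFB and 0.44 beside EGF+TGFB. Its rise of 0.21 with all ligands was lost under upper-quartile scaling (0.12, adjusted p = 0.090).

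SOCS7 (ENSG00000274211, chr17:38351844-38405593, plus strand) was highest in PBS, at 54.3, 50.9 and 51.1 CPM, and lower with every treatment. It held 33.8, 36.8 and 36.0 CPM with EGF, 38.5, 41.4 and 41.0 CPM with OSM, and 33.0, 33.0 and 33.2 CPM with all ligands. The log2 fold changes against PBS were -0.55 with EGF, -0.37 with OSM, -0.17 with TGFB and -0.66 with all ligands, with an SE of 0.05 each, and all 7 treatments were called. The T0 libraries (42.2, 39.2 and 40.3 CPM) also lay below PBS, and the rise from T0 to PBS was 0.36. A second deposited row of the symbol (ENSG00000274229) held 2.48% of the summed SOCS7 counts.

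SOCS5 (ENSG00000171150, chr2:46698952-46780245, plus strand) was lower than in PBS (20.4, 20.1 and 17.4 CPM) with EGF (16.0, 14.2 and 16.0 CPM) and with OSM (15, 16.6 and 15.4 CPM). The fold changes were -0.32 and -0.30 on the log2 scale, and the lowest group, EGF+OSM+TGFB at 12.4, 11.6 and 13.5 CPM, gave -0.62. With TGFB it held 22.6, 22.4 and 21.0 CPM and was higher by 0.19, a call at an adjusted p of 0.044 in edgeR that was lost in 7 of 12 alternatives. Those included leaving out PBS replicate 3 (0.12, adjusted p = 0.25), TGFB replicate 1 (0.13) or TGFB replicate 2 (0.11). Its rise of 0.25 from T0 to PBS was lost without PBS replicate 1 (adjusted p = 0.058) or PBS replicate 2 (0.052).

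SOCS4 (ENSG00000180008, chr14:55027230-55049489, plus strand), tied to the EGF receptor as SOCS5 is, moved the other way with EGF. It held 38.9, 34.2 and 36.7 CPM with EGF, above 30.9, 29.0 and 26.5 CPM in PBS, a log2 fold change of 0.35 ± 0.07. With OSM it held 26.6, 23.4 and 25.1 CPM, overlapping PBS, and was lower by 0.21, a call lost without OSM replicate 2 (adjusted p = 0.099) or PBS replicate 1 (0.104). With TGFB it gave 0.05 (95% interval -0.11 to 0.20). EGF added to OSM raised it by 0.39. Its rise of 0.18 with EGF+OSM was lost without EGF+OSM replicate 3 (adjusted p = 0.117), without PBS replicate 3 (0.153) and under upper-quartile scaling (0.24).

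PIAS3, the SUMO ligase (ENSG00000131788, chr1:145848522-145859836, minus strand), held 77.1, 81.9 and 84.6 CPM in PBS, 60.8, 67.9 and 62.2 CPM in OSM, and 93.6, 91.9 and 97.6 CPM in TGFB. OSM lay below PBS and TGFB above it with no overlap, at log2 fold changes of -0.35 ± 0.05 and 0.22 ± 0.05. With EGF the level was 77.5, 76.5 and 72.9 CPM, overlapping PBS, and the log2 fold change of -0.10 (adjusted p = 0.070 in edgeR) was not called; it was called without PBS replicate 1 (-0.14, adjusted p = 0.029) and under upper-quartile scaling (-0.17, 0.0048). TGFB added to OSM raised PIAS3 by 0.47 and TGFB added to EGF+OSM raised it by 0.57. The small rise of 0.12 with OSM+TGFB was lost in 9 of 12 alternatives, among them without any 1 of the 3 OSM+TGFB libraries (adjusted p = 0.087, 0.083 and 0.053), without PBS replicate 1 (0.19) and without PBS replicate 2 (0.061). The rise of 0.15 from T0 to PBS was lost without PBS replicate 2 or 3 (0.053 and 0.096) and without T0 replicate 2 or 3 (0.093 and 0.055). It was also lost with no filter on low counts (0.058), and the rise of 0.19 with all ligands was lost under upper-quartile scaling (0.10).

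Over the 9 groups, mean levels of SOCS4 ran from 25 CPM (OSM) to 36.6 CPM (EGF) and those of SOCS5 from 12.5 CPM (EGF+OSM+TGFB) to 22.0 CPM (TGFB). Those of SOCS7 ran from 33.0 CPM (EGF+OSM+TGFB) to 52.1 CPM (PBS) and those of PIAS3 from 62.2 CPM (EGF+OSM) to 94.4 CPM (TGFB). Ordered by level, every group of SOCS4 overlapped the next, whereas for SOCS5 the TGFB and PBS groups, and for SOCS7 the PBS and TGFB groups, stood apart from each other and from the groups below.

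Levels of different genes are compared per kilobase of the canonical transcript. On that scale PIAS3 was the most abundant of the 9 in PBS, at 28.0 CPM per kb, followed by SOCS7 at 6.31, SOCS6 at 4.70, SOCS1 at 4.54, SOCS4 at 4.18, SOCS5 at 4.04 and SOCS2 at 2.58 CPM per kb. CISH (0.61) and SOCS3 (0.55) were the least abundant. The libraries of neighbours from SOCS6 to SOCS5 in this order overlapped, as did those of CISH and SOCS3. With OSM the order changed at both ends: SOCS3 rose to the top at 60.4 CPM per kb, ahead of PIAS3 at 21.9, and SOCS1 dropped to the bottom at 0.28. Without the length scale, SOCS3 made up 1.06 ± 0.23% of the summed CPM of SOCS1 to SOCS7 and CISH in PBS and 56.9 ± 3.34% in OSM (SD, n = 3).

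Counted over the set, 9 of 9 genes were called for OSM against PBS, 3 higher and 6 lower. The background is high: 63.4% of all genes tested were called, 33.5% higher and 29.8% lower. For EGF, 6 of 9 were called, 3 higher and 3 lower, against 73.5% of all genes (34.9% higher, 38.6% lower). For TGFB, 6 of 9 were called, 5 higher and 1 lower, against 35.6% of all genes (19.9% higher, 15.8% lower). For PBS against T0, 6 of 9 were called, 5 higher and 1 lower, against 35.1% (16.2% higher, 18.9% lower). With most genes called for EGF and OSM, a call by itself says little about these 9 genes, and the sizes above carry the description. Among the combinations, EGF+OSM had 9 of 9 genes called against PBS (77.2% of all genes), EGF+TGFB had 8 (73.7%), OSM+TGFB had 7 (66.0%) and EGF+OSM+TGFB had 8 (74.4%). The median log2 fold change of the 9 genes was -0.10 with EGF, -0.30 with OSM and 0.22 with TGFB, beside medians of -0.07, 0.00 and -0.01 over all genes.

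When a ligand was added to others, the number of the 9 genes called is given beside the share of all genes called. Several counts lie near that share, so they say little about the 9 genes themselves. EGF added to TGFB changed 9 of 9 genes (69.4% of all genes), but the SOCS6 rise of 0.15 among them was lost in 7 of 12 alternatives, including without any 1 of the 3 TGFB libraries (adjusted p = 0.114, 0.060 and 0.052), EGF+TGFB replicate 1 (0.138) or EGF+TGFB replicate 2 (0.21). The PIAS3 fall of 0.14 in that comparison was lost without EGF+TGFB replicate 3 (0.31) or TGFB replicate 3 (0.078), and with no filter on low counts (0.22). OSM added to EGF changed 7 (34.9%), OSM added to TGFB 7 (56.6%) and OSM added to EGF+TGFB 3 (26.4%), namely SOCS3, SOCS5 (-0.32) and SOCS6. The SOCS5 fall of 0.20 when OSM was added to EGF had an adjusted p of 0.045 in edgeR. It rose to between 0.064 and 0.145 when EGF replicate 1, EGF replicate 3 or any EGF+OSM library was left out. With no filter on low counts it was 0.106. TGFB added to EGF changed 6 genes (54.6%), all upward. Of all genes called in that comparison, 49.3% were higher. TGFB added to OSM changed 5 (51.6%), and TGFB added to EGF+OSM changed 4 (61.1%): SOCS1, SOCS6 and PIAS3 rose, and SOCS7 fell by 0.14. That SOCS7 call was lost without EGF+OSM replicate 3 (adjusted p = 0.162) and with no filter on low counts (0.059).

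EGF added to OSM+TGFB changed 4 genes (52.2% of all genes): SOCS2 rose by 0.75, and SOCS3, CISH and SOCS5 (0.34) fell. EGF added to OSM changed 5 (61.7%): SOCS2 rose by 0.81 and SOCS4 rose, while SOCS3, SOCS5 and SOCS7 fell. That count was 3 without OSM replicate 2 and 3 with no filter on low counts. The calls lost were the SOCS5 fall of 0.22 (adjusted p = 0.080 without OSM replicate 2 and 0.051 without EGF+OSM replicate 1) and the SOCS7 fall of 0.15 (0.054 without OSM replicate 2 and 0.093 without EGF+OSM replicate 2). The calls of SOCS2, SOCS3 and SOCS4 in that comparison held in every alternative.

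**Figure D3:**
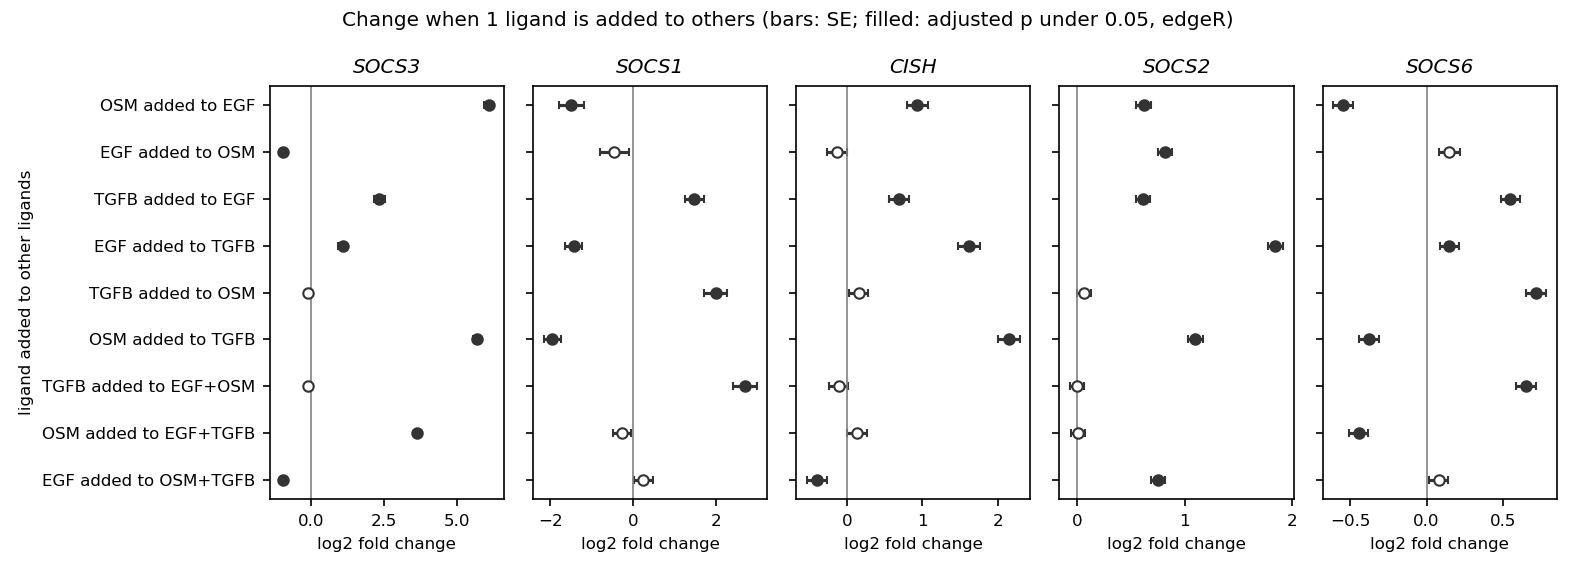
Log2 fold change of SOCS3, SOCS1, CISH, SOCS2 and SOCS6 when a ligand is added to another ligand or pair (rows), with bars of 1 SE and filled points where the adjusted p from edgeR was under 0.05. TGFB raises SOCS1 and SOCS6 in all 3 rows where it is added, and EGF lowers SOCS3 by 0.94 in both rows where OSM is already present.

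The question the combinations address is whether responses to several ligands add up. To measure a departure from additivity, the log2 fold changes of the single ligands were summed and subtracted from that of the combination, all against PBS. For a pair, the departure equals the change in the effect of either ligand when the other is present. For EGF+OSM, 5 of 9 genes departed (38.7% of all genes did). CISH rose by 2.15 where the sum was 3.5, and SOCS2 by 2.44 where the sum was 3.44, departures of -1.35 ± 0.20 and -1.01 ± 0.10. SOCS1 fell by 4.51 where the sum was -7.07, a departure of 2.56 ± 0.42. From the PBS mean of 5.62 CPM, that sum implies a SOCS1 level below every library measured. The OSM and EGF+OSM libraries held 8 to 16 counts of SOCS1 each, which limits the precision of this departure. SOCS7 departed by 0.40 ± 0.07. SOCS3 departed by -0.70 ± 0.25 (adjusted p = 0.033 in edgeR). That call was lost in 7 of 18 alternatives: with no filter on low counts (0.088), and without EGF replicate 1 (0.138), EGF replicate 3 (0.072), EGF+OSM replicate 2 (0.054), OSM replicate 2 (0.056), PBS replicate 1 (0.104) or PBS replicate 3 (0.068).

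For EGF+TGFB, 2 of 9 genes departed (29.8% of all genes did), both upward. SOCS3 rose by 2.09 where the sum of the single responses was 0.77, a departure of 1.32 ± 0.28, and SOCS1 fell by 1.54 where the sum was -3.12, a departure of 1.58 ± 0.30. SOCS2 in this pair met the sum, with an observed 2.43 against 2.40 and a departure of 0.03 (95% interval -0.19 to 0.24). CISH gave 0.40 (-0.04 to 0.85), not called.

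For OSM+TGFB, 4 of 9 genes departed (23.3% of all genes did): SOCS1 by 2.10 ± 0.33, SOCS3 by -1.11 ± 0.22, SOCS2 by -0.52 ± 0.10 and PIAS3 by 0.25 ± 0.07. CISH departed by -0.14 (95% interval -0.57 to 0.30), not called. With all ligands together 6 of 9 departed (48.0% of all genes did): SOCS1 by 5.36, SOCS3 by -1.81, CISH by -1.76, SOCS2 by -1.59, SOCS7 by 0.44 and PIAS3 by 0.42. The SOCS1 sum for all ligands was -7.18, which again implies a level below every library measured. SOCS4, SOCS5 and SOCS6 had no called departure in any of the 4 combinations, where their departures lay between -0.20 and 0.21. All 4 departures share the PBS libraries.

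**Figure D4:**
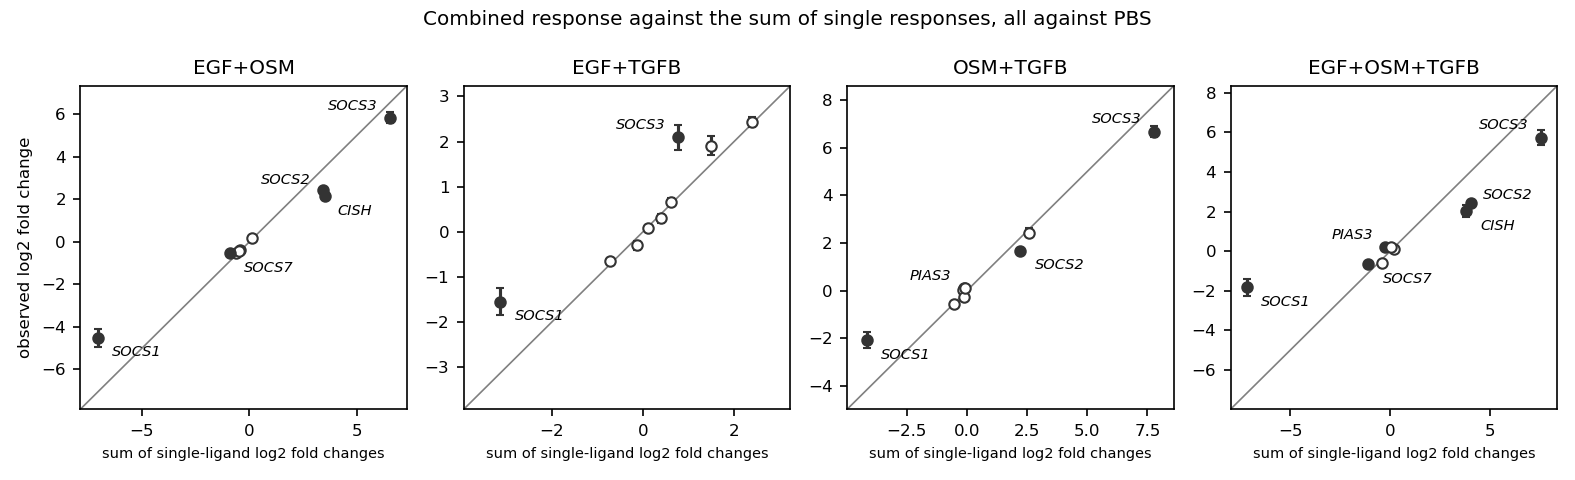
Observed log2 fold change of each combination against PBS (vertical) against the sum of the single-ligand log2 fold changes (horizontal) for the 9 genes; the line marks equality, bars are 1 SE of the departure, and filled, named points have an adjusted p under 0.05 in edgeR. SOCS1 lies above the line in all 4 panels, while SOCS3 lies above it with EGF+TGFB (2.09 against 0.77) and below it in the 3 panels with OSM.

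The genes around the SOCS loop were read from lists of pathway genes. Their counts are given with the shares of all genes called higher and lower, and no test compared a list with other genes or one ligand with another. Of 15 tested genes of the JAK-STAT core (16 listed), 7 rose and 6 fell with OSM (33.5% and 29.8% of all genes), 3 rose and 10 fell with EGF (34.9% and 38.6%), and 3 rose and 2 fell with TGFB (19.9% and 15.8%), with medians of 0.17, -0.66 and -0.03. The TGFB count, 5 of 15, is near its background. The largest OSM changes were in STAT4 (3.27), which stayed at a low level (0.411 CPM in PBS and 3.96 CPM in OSM), in the OSM receptor subunit OSMR (2.80) and in STAT3 itself (1.16). OSMR held 79.9 ± 4.22 CPM in PBS and 556 ± 46.1 CPM in OSM, and STAT3 held 283 ± 16.6 CPM in PBS and 633 ± 73.5 CPM in OSM (SD, n = 3). With EGF, OSMR rose by 0.93 and STAT3 fell by 0.67. The count for TGFB was 3 without PBS replicate 2 or TGFB replicate 3, against 5 with all libraries.

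Of 20 STAT3 targets listed and tested, 17 rose and 1 fell with OSM (median 0.63), beside 33.5% and 29.8% of all genes. With EGF 5 rose and 13 fell (median -0.77), beside 34.9% and 38.6%. With EGF+OSM 9 rose and 9 fell (median -0.25), beside 37.6% and 39.6%. For TGFB 5 rose and 6 fell, beside 19.9% and 15.8%, a total of 11 that was 7 without PBS replicate 3 or TGFB replicate 1. The protease inhibitor TIMP1 rose by 3.86 with OSM, from 153 ± 3.71 to 2221 ± 263 CPM. Haptoglobin (HP) held at most 4 counts in any PBS library and 75.8 ± 26.9 CPM in OSM, and the chemokine CCL2 held at most 1 count in any PBS library and 0.404 ± 0.184 CPM in OSM. Of 8 tested STAT5 targets (9 listed, of which BCL6 and PIM1 are also on the STAT3 list), 1 rose and 1 fell with OSM (33.5% and 29.8% of all genes), PIM2 by 0.29 and BCL2L1 by -0.33. With EGF 4 rose and 3 fell (34.9% and 38.6%), and with TGFB 1 rose and 4 fell (19.9% and 15.8%). The OSM count of 2 was 1 without OSM replicate 3 or PBS replicate 1 and 4 without OSM replicate 2. The TGFB count of 5 was 2 without PBS replicate 2 or TGFB replicate 2, and 3 without PBS replicate 3, TGFB replicate 1 or TGFB replicate 3.

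The lists that follow are read against the same shares of all genes, 33.5% higher and 29.8% lower with OSM, 34.9% and 38.6% with EGF, and 19.9% and 15.8% with TGFB. Of the 9 ligase partners of the SOCS box, 6 rose and 2 fell with OSM (median 0.26), 6 rose and 2 fell with EGF (0.53), and 2 rose and 1 fell with TGFB (0.02). With OSM the adaptor ELOC rose by 0.39, the ring protein RBX1 by 0.39 and the ubiquitin-like modifier NEDD8 by 0.30. Other partners were lower in OSM than in PBS by group mean. Elongin B (ELOB) went from 157 CPM in PBS to 131 CPM in OSM, RNF7 from 48.9 to 40.1 CPM and cullin 5 (CUL5) from 48.5 to 44.8 CPM. Of 10 other inhibitors of JAK-STAT signalling, 5 rose and 3 fell with OSM (median 0.15), 4 rose and 3 fell with EGF (0.01), and 4 rose and 2 fell with TGFB (0.07). The adaptor SH2B3 rose by 1.00 with OSM, the phosphatase PTPN1 rose by 0.91, and the ubiquitin ligase CBLB fell by 1.20. Of 16 tested receptors and substrates that SOCS proteins regulate (19 listed), 8 rose and 7 fell with OSM (median 0.22), 6 rose and 9 fell with EGF (-0.34), and 8 rose and 2 fell with TGFB (0.29). Among them IL4R rose by 2.48 with OSM, IFNGR2 rose by 1.62 and ERBB3 fell by 1.75.

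**Figure D5:**
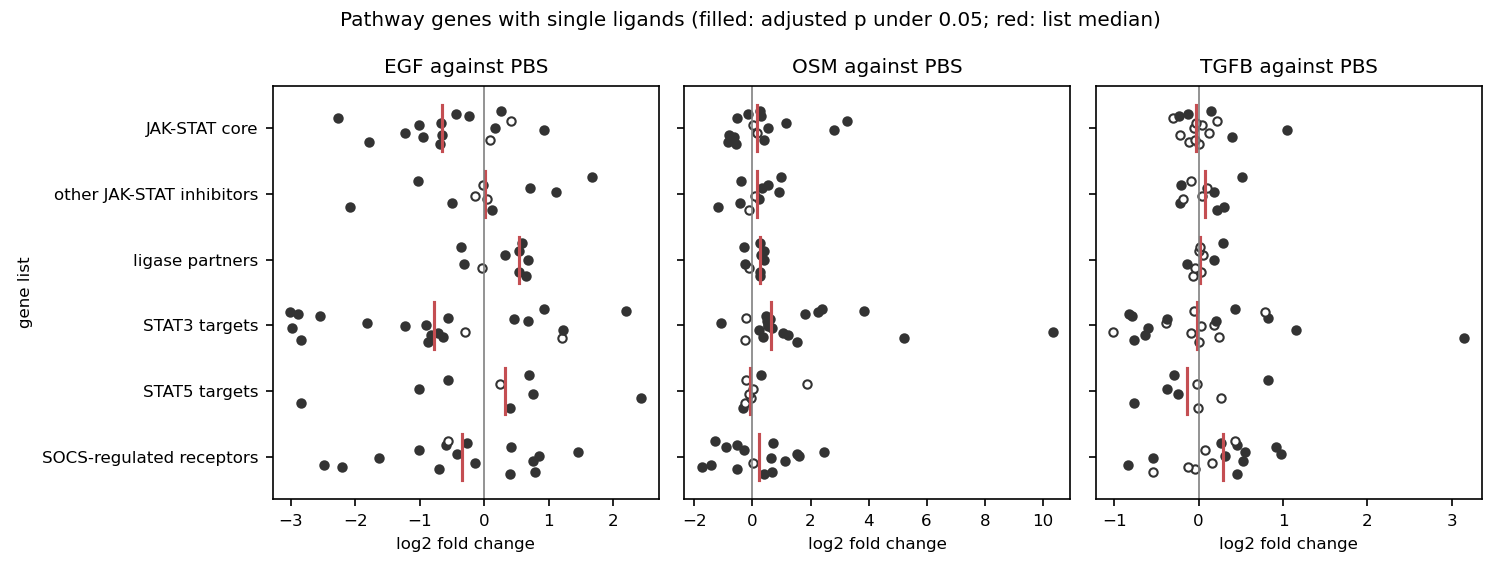
Log2 fold change of each tested gene of 6 pathway lists (rows) with EGF, OSM or TGFB against PBS (panels), filled where the adjusted p from edgeR was under 0.05, with a red bar at the list's median. STAT3 targets have a median of 0.63 with OSM and -0.77 with EGF; the far right points of that row in the OSM panel are HP and CCL2, whose PBS libraries held at most 4 and 1 counts.

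For the 5 genes whose group means spanned at least 2-fold, the genes most alike were taken by Pearson's r of log2 CPM over the 27 libraries, which share their 9 groups and are thus not 27 independent points. Because the genes were chosen for this likeness, their changes in the same direction follow from the choice. SOCS3 was followed by CARHSP1 (r = 0.979), DENND2B (0.973) and MIDN (0.973). With OSM these rose by 2.0, 2.99 and 1.09, compared with 6.77 for SOCS3. CISH was followed by IL4R (0.974), ENTPD7 (0.971) and BATF3 (0.971), of which IL4R is also on the receptor list above and rose by 1.45 with EGF. SOCS2 was followed by CERS2 (0.985), TUBB6 (0.983) and PTPN1 (0.981), the last also on the inhibitor list, with a rise of 1.11 for EGF and 0.91 for OSM. SOCS1 was followed by CPEB2 (0.962), KIAA0232 (0.955) and VSTM2L (0.953), and CPEB2 fell by 1.44 with EGF and by 1.80 with OSM. SOCS6 was followed by DUSP8 (0.939), DSTN (0.936) and PXDC1 (0.926), and PXDC1 rose by 0.99 with TGFB and fell by 0.68 with OSM.

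Among the 9 genes themselves, over the same libraries, the strongest likeness was between SOCS3 and CISH (r = 0.86), SOCS2 and CISH (0.85) and SOCS6 and PIAS3 (0.85). The most negative values were between SOCS2 and SOCS7 (-0.89), SOCS2 and SOCS5 (-0.77) and SOCS1 and CISH (-0.74). Counting could mix 4 of the genes with a neighbour, because exons overlap in GENCODE v44: CISH with MAPKAPK3 over 218 bases, SOCS2 with SOCS2-AS1 over 202 and PIAS3 with NUDT17 over 433, all on the opposite strand, and SOCS5 with LINC01118 over 160 on the same strand. The library kit marks strand, but whether the counting used it is not given in the sources used here.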

How the data were processed

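Polyadenylated RNA from MCF10A cells was sequenced with a stranded library kit, per the labels' protocols, and samples were grouped by their titles. The authors deposited 1 table of 40487 gene rows and 27 library columns, used here as estimated counts. The submitters' processing notes name Trim Galore 0.4.3, cutadapt 1.10, FastQC 0.11.5, kallisto 0.46.2, R 3.5.0 and the builds hg38 and GRCh38.p5. Summing to genes and any rounding are not given in the sources used here; the deposited values were whole. Such estimates can move reads between overlapping genes. Whether replicates were separate cultures is not stated, so p-values measure the spread between these samples, which may be technical.

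Rows that shared a symbol were summed, and rows without a symbol (0.324% of counts) kept their identifier. In edgeR 4.0.16 (R 4.3.3), filterByExpr by group left 15575 genes, with TMM factors from 0.867 to 1.12. All 27 libraries entered 1 quasi-likelihood fit (glmQLFit, robust; glmQLFTest) with 9 group means, 18 residual degrees of freedom and no replicate block. Calls used an adjusted p under 0.05 (Benjamini-Hochberg over all genes tested) in 21 contrasts. Fold changes used a prior count of 0.125, SE is the absolute log2 fold change divided by the square root of F, and intervals are at 95%. Every replicate pair exceeded sampling noise (chi-square divided by its degrees of freedom, 6.65 to 33.5), so each library counted as 1 replicate. The code was tested on simulated data. Coordinates are from GENCODE v44 (GRCh38), by Ensembl identifier. Promoter windows of 5 genes are described, and 1 further promoter sequence is not reported here.

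The genes described and all lists, which came from general knowledge, were chosen with earlier results of these data known. Beyond the 9 genes, the text names, per list, the 3 genes with the largest absolute OSM change among those called. It also names the 3 genes most correlated with each of the 9 whose group means span at least 2-fold. CDH1, KRT8, EPCAM, PTPRC, BCL6, PIM1, ELOB, RNF7 and CUL5 fall outside this rule and were chosen after their values were seen. Alternatives were DESeq2 1.42.0, upper-quartile scaling, no filter on low counts, a replicate block, rows as deposited, only the groups of a contrast, and leaving out each library.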

Additional observations from a re-analysis of the deposited data

Results flagged for a closer look

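In each result below the effect of a ligand differed with and without a second ligand, by the interaction contrast of edgeR at an adjusted p under 0.05 (log2 scale, difference ± SE). Between EGF and OSM this held for CISH (-1.35 ± 0.20), SOCS2 (-1.01 ± 0.10), SOCS1 (2.56 ± 0.42), SOCS7 (0.40 ± 0.07) and SOCS3 (-0.70 ± 0.25), the last lost in 7 of 18 alternatives. Between EGF and TGFB it held for SOCS1 (1.58 ± 0.30) and SOCS3 (1.32 ± 0.28). Between OSM and TGFB it held for SOCS1 (2.10 ± 0.33), SOCS3 (-1.11 ± 0.22), SOCS2 (-0.52 ± 0.10) and PIAS3 (0.25 ± 0.07). SOCS1 differed in all 3 pairs, each time toward a level above the sum of the single effects, and its lowest groups held 8 to 16 counts per library. SOCS3 differed upward in the EGF and TGFB pair and downward in both pairs with OSM. Groups of 3 libraries were not tested for single libraries that stand apart, although each library was left out in turn.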

How the results depend on the processing

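Of the 189 tests of the 9 genes, 126 were called. In the 2511 alternative values, 110 of these calls held throughout, 16 were lost in at least 1 alternative, 9 tests that were not called became so, and 0 called tests changed direction. The largest log2 change among the lost calls was 0.70 in size, the SOCS3 departure with EGF+OSM. Some values that were not called in either setting changed sign, and neither setting gives those a direction. The number of the 9 genes called when EGF was added to OSM (5) was 3 with no filter and ran from 3 to 6 with a library left out. With a library left out, called genes for TGFB ran from 3 to 5 in the JAK-STAT core (5 with all libraries), from 7 to 10 among STAT3 targets (11) and from 2 to 4 among STAT5 targets (5). For OSM the called STAT5 targets (2) were 1 with only the groups of the contrast and ran from 1 to 4 with a library left out. The cause was not tested. Upper-quartile scaling put the median of all genes at -0.14 for EGF, -0.13 for EGF+OSM and -0.14 for EGF+TGFB (TMM: -0.07, -0.05 and -0.04). It gave -0.09 for OSM+TGFB and -0.09 for EGF+OSM+TGFB (TMM: 0.00 and 0.00). The medians were -0.05 for OSM and -0.04 for TGFB (TMM: 0.00 and -0.01). Small changes against PBS, with or without EGF, thus depend in size on the scaling. Depth limits SOCS1 most, with 8 to 16 counts per library in its lowest groups.

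Pairing by replicate number required the deviations of every same-numbered pair of libraries from different groups to correlate above 0.1. That criterion was not met: same-numbered pairs correlated from -0.074 to 0.39 (median 0.15, 72 of 108 pairs over 0.1). Different-numbered pairs correlated from -0.34 to 0.18 (median -0.07, 4 of 216 over 0.1). All 27 libraries correlated best, on average, with their own number. The data thus show a likeness by replicate number, whose source the labels do not give and which the main fit leaves out. A replicate block raised the number of genes called 1.01 to 1.21 times per contrast. It gained 2 calls of the 9 genes and lost 0: SOCS4 when OSM was added to EGF+TGFB (-0.18, adjusted p = 0.0498 in edgeR) and SOCS6 when EGF was added to OSM (0.15, 0.045). With the block, 4 STAT5 targets were called for OSM.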
